A study of Danio rerio with 26 samples.

Results

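Brains of 3 year old zebrafish at 37.5 nM rotenone were set against brains of 1 year old zebrafish at 3.75 nM, to ask which expression differences of the older brains hold against a young group other than the one that shared their concentration. The comparison was made over 17 of the 26 libraries of the series, chosen by their age and concentration labels: 7 from 3 year fish and 10 from 1 year fish. The other 9 libraries, from 1 year fish at 37.5 nM, served as the second young group, in a comparison that shares the 7 libraries of 3 year fish with the first. A gene is said to hold where it passed an adjusted p of 0.05 against both young groups with the same sign.

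Rotenone is a plant-derived inhibitor of complex I, the entry point of electrons from NADH into the mitochondrial respiratory chain, and is used in animals to model the loss of dopamine neurons. In the ageing vertebrate brain, microglia, the resident macrophages, and T cells are known to present or recognise peptides on MHC molecules, whose genes are induced by interferons. The circadian clock is a feedback loop in which BMAL and CLOCK proteins drive the period and cryptochrome genes, whose products shut BMAL and CLOCK off. ROR and NR1D nuclear receptors set the level of BMAL, and in zebrafish nearly every tissue holds a clock that responds to light.

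All fish were male and the tissue was whole brain per the labels. Strain is given as AB JxTu Tg(flk:mCherry) for the 3 year fish and as AB JxTu for both groups of 1 year fish. The flk promoter is that of kdrl, an endothelial growth factor receptor gene, and drives a red fluorescent protein whose transcript was not analysed here. Age, strain label, concentration and count table all differ between the 3 year fish and the 1 year fish at 3.75 nM. Their parts cannot be told apart in that comparison. Against 1 year fish at 37.5 nM, concentration and table are shared, and the labels of age and strain differ. Whether the strains differ beyond the transgene was not tested. Every fish had rotenone, so no untreated background was measured, and neither duration nor route of exposure is given in the sources used here. Each title gives a fish number of its own and nothing on pooling, so p-values measure the spread between these samples. The numbers fall into a lower run, with 3 of the 3 year fish, 5 of the 1 year fish at 3.75 nM and 4 of those at 37.5 nM, and a higher run with 4, 5 and 5. The run entered every fit as a covariate.

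The libraries held 20609926 to 36028646 gene counts each, and levels are given as CPM, counts scaled to a common library size. MT-CO1 was the most abundant gene in every one. Brain markers were present at like levels in both groups: SNAP25 (ENSDARG00000020609), a synaptic vesicle fusion protein, ranged over 3790 to 4740 CPM in 3 year fish and 3600 to 4770 CPM in 1 year fish at 3.75 nM. The oligodendrocyte gene mbpa ranged over 5430 to 11400 CPM in 3 year fish and 6410 to 13400 CPM in 1 year fish at 3.75 nM. Genes of neighbouring tissues scored high in some libraries, which were mostly young. Whether such tissue was carried over was not tested. The mean log2 level of 40 eye and pineal genes was taken relative to the median of the 26 libraries. In 1 year fish at 3.75 nM it stood 2.62 above that median in replicate 1, 2.43 in replicate 5 and 1.55 in replicate 6. Skeletal muscle genes stood 3.48 above it and skin genes 3.58 above it in replicate 4 of that group, and skin genes stood 1.55 above it in its replicate 3. Among 3 year fish, replicate 7 alone passed 1.5, with skin genes 1.69 above the median. In the second young group, replicates 1 and 5 stood out for eye and pineal genes (3.19 and 3.25) and replicate 4 for muscle (4.36) and pituitary (2.13).

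**Figure D1:**
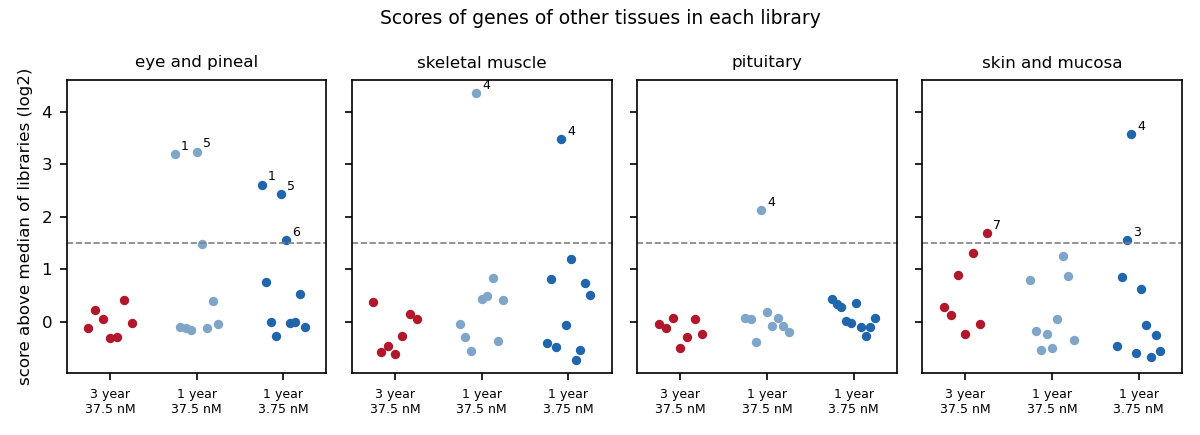
Score of each library for genes of 4 tissues next to the brain (mean log2 level over the list's genes, relative to the median of the 26 libraries). Points are libraries, and numbers are replicates above the dashed line at 1.5. The highest scores lie in 1 year fish of both groups, at up to 3.58 in those at 3.75 nM, and the 3 year fish pass the line once, at 1.69.

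Against 1 year fish at 3.75 nM, 1105 of 19952 genes tested were higher in 3 year fish, or 5.54%, and 718 were lower, or 3.6% (edgeR quasi-likelihood test, Benjamini-Hochberg adjusted p under 0.05). The difference reached 2-fold for 318 higher and 64 lower genes. Against 1 year fish at 37.5 nM, 1160 of 19887 genes were higher (5.83%) and 815 lower (4.1%). Of 19744 genes tested in both, 648 held as higher (3.28%) and 347 held as lower (1.76%); at 2-fold or more in both comparisons these were 248 higher and 36 lower. The 995 genes that held made up 54.6% of those called against 3.75 nM and 50.4% of those called against 37.5 nM. Since both comparisons use the same 3 year fish, this count says which genes cleared both young groups and is no independent repeat. The median log2 fold change of all genes was 0.0049. In 82 genes, or 0.411% of those tested, every 3 year fish lay above every 1 year fish at 3.75 nM, and in 43, or 0.216%, every one lay below; against all 19 young fish these counts were 30 and 18.

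Whether a gene differs between the young groups is tested by the comparison of 1 year fish at 37.5 nM with 1 year fish at 3.75 nM, which uses no old library. In it 17 of 19691 genes were higher (0.0863%) and 7 were lower (0.0355%), and 2423 had an unadjusted p under 0.05. Of these 24 genes, 20 were also called between 3 year fish at 37.5 nM and 1 year fish at 3.75 nM, and 1 of the 20, nr1d4b, held against both young groups. Of the 1813 genes called against 3.75 nM and tested against 37.5 nM, 818 did not hold, and 19 of those 818 passed the test between the young groups. For the other 799 a difference between the young groups did not pass the test, so that they missed a threshold against 37.5 nM without being shown to differ from the first comparison.

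The counts moved with the libraries. Without the 3 young libraries at 3.75 nM and the 3 at 37.5 nM whose tissue scores passed 2, a limit set after seeing the data, 572 genes were higher and 262 lower against 3.75 nM, and 384 and 136 held. Without every library past 1.5, which left 6 of the 3 year fish and 5 of the 1 year fish at 3.75 nM, 46 were higher and 28 lower, and 38 and 18 held. The 3 libraries at 3.75 nM with scores over 2 were all of the lower run. The limit of 1.5 left only replicate 2 of the lower run at 3.75 nM. Leaving out replicate 3 of the 3 year fish gave 625 higher and 363 lower, the lowest counts of any single omission, and 387 and 191 that held. Within the lower run 107 genes were higher and 149 lower, and within the higher run 229 were higher and 27 lower. An interaction of group and run passed the adjusted test for 0 of 19952 genes in edgeR, with 1243 at an unadjusted p under 0.05; no other tool was run for it.

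**Figure D2:**
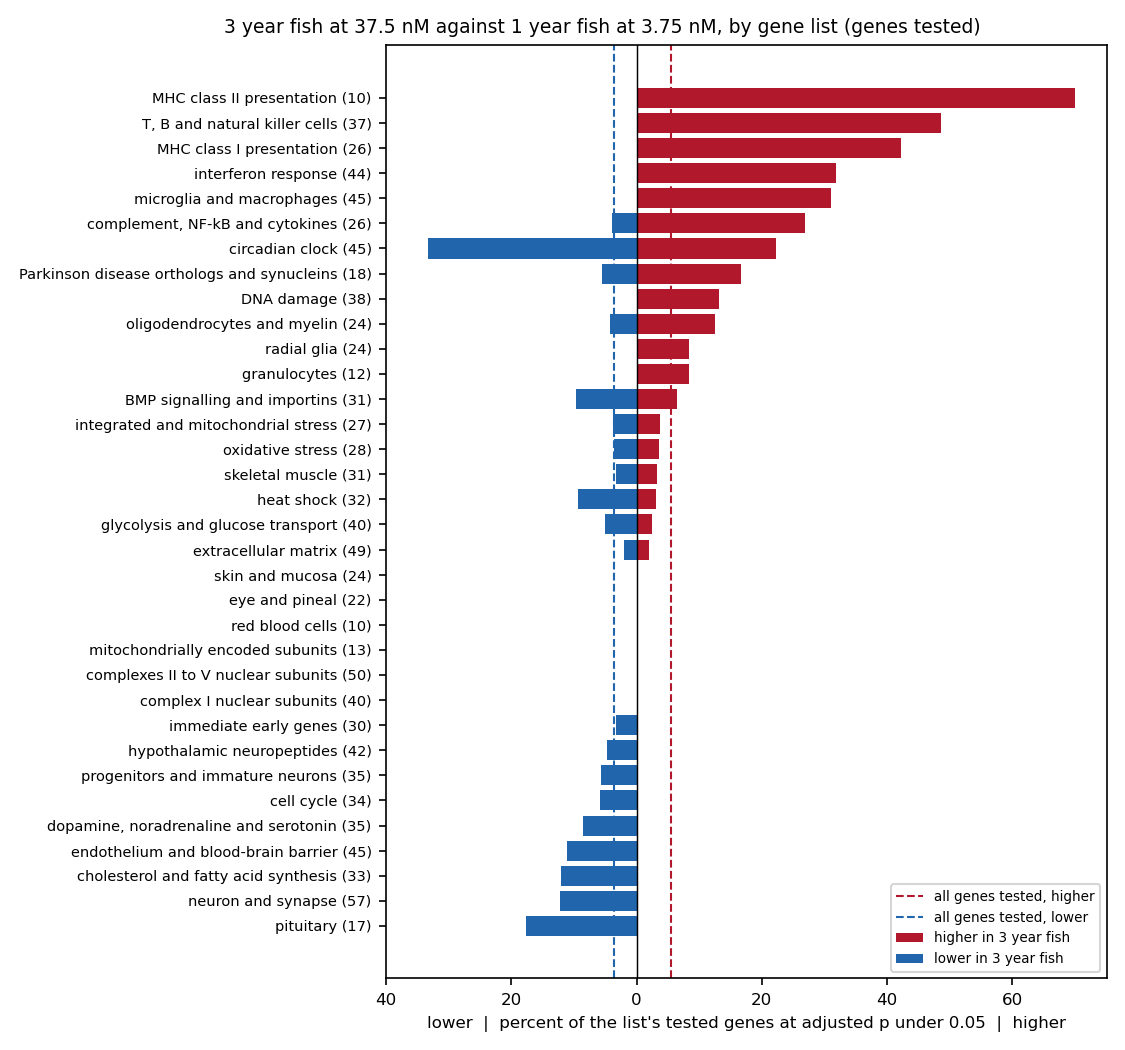
Percent of the tested genes of each of 34 gene lists at adjusted p under 0.05 in 3 year fish at 37.5 nM against 1 year fish at 3.75 nM, higher to the right and lower to the left, with the number of genes tested in brackets; dashed lines give the 5.54% and 3.6% over all genes. MHC class II reaches 70.0% higher, and the circadian clock list has called genes on both sides. The lists and their members were chosen with earlier results of these data known, so these shares are no test against the dashed lines.

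Genes of MHC class I presentation were higher in 3 year fish: 11 of 26 tested passed the test as higher and 0 as lower, with a median log2 fold change of 0.63, and all 11 held. The share called was 42.3%, all higher, where 5.54% of all genes were higher. Of the 26, 2 had a negative log2 fold change, the lowest at -1.625. The median was 0.40 in the lower run and 0.76 in the higher run, and 0.73 without the libraries with scores over 2, where 11 genes were called; without those past 1.5, 1 was called. The presenting chain mhc1uca had 12.1, 12, 31.3, 21.5, 19.9, 30.9 and 23.1 CPM in 3 year fish, against 3.04 to 7.20 CPM with a median of 4.15 in 1 year fish at 3.75 nM. No value of a 3 year fish fell within the young range, and the log2 fold change was 2.21 ± 0.23 (SE; adjusted p = 0.00016, edgeR). The chaperone tapbp.2, related to tapasin, which loads peptides onto class I, ranged over 4.61 to 17.1 CPM in 3 year fish and 2.09 to 4.59 CPM in 1 year fish at 3.75 nM, a log2 fold change of 1.71 ± 0.24. For PSME1, a proteasome activator subunit, 3 year fish ranged over 21.3 to 46.1 CPM and 1 year fish at 3.75 nM over 10.8 to 30.7 CPM, overlapping in 2 old fish. The light chain b2m, which every class I molecule carries, had a median of 279 CPM in 3 year fish and 121 CPM in 1 year fish at 3.75 nM (log2 fold change 1.11 ± 0.20). Also higher were its peptide transporter genes TAP1 (0.74) and tap2t (0.34), the trimming enzyme gene ERAP1 (ENSDARG00000021859; 0.50) and the immunoproteasome subunit gene PSMB10 (0.46). In the young comparison 0 of the 26 passed, and none of the 11 had a log2 difference between young groups outside -0.34 to 0.02. Copies of the mhc1 family may share reads, so single values among them are uncertain.

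Class II presentation, by which macrophages and B cells show peptides to CD4 T cells, had 7 of 10 genes higher and 0 lower, with a median log2 fold change of 0.72, and all 7 held. That was 70% of the list, where 5.54% of all genes were higher. The chain mhc2dab had 2.56, 56.6, 72.4, 10.5, 82.3, 7.86 and 14.7 CPM in 3 year fish, against 1.74 to 4.44 CPM with a median of 3.48 in 1 year fish at 3.75 nM. Replicate 1 lay within the young range, and the other 6 lay above it, 3 of them over 50 CPM. Its log2 fold change was 3.42 ± 0.55 (adjusted p = 0.0025), and 2.83 without replicate 5. The invariant chain genes cd74b and cd74a, which guide class II through the cell, had medians of 301 and 714 CPM in 3 year fish and 126 and 418 CPM in 1 year fish at 3.75 nM. Their log2 fold changes were 0.97 ± 0.20 and 0.56 ± 0.14. The cathepsin genes ctss2.1 (0.92) and ctss2.2 (0.82), the costimulatory receptor gene cd40 (0.62) and the dendritic cell marker cd83 (2.02) made up the rest. Within single runs, at 3 against 5 and 4 against 5 fish, class I had 0 genes called in the lower run and 8 in the higher, and class II 0 and 3. Without the libraries past 1.5, class II had 0 calls.

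Microglia and macrophage genes were called higher for 14 of 45 tested and lower for 0, with a median log2 fold change of 0.52, and 10 held. These 14 were 31.1% of the list, where 5.54% of all genes were higher. The chemokine gene ccl34b.4, a member of this list, had the largest fold among the 10 increases named for their size. It had 5.76, 16.0, 66.7, 29.0, 24.7, 15.0 and 23.7 CPM in 3 year fish and 0.565 to 2.54 CPM, median 0.992, in 1 year fish at 3.75 nM. The groups did not overlap, and the 20.1-fold difference (log2 4.33 ± 0.42, adjusted p = 8.9e-05) kept its call in all 28 alternatives, between 3.79 and 4.60. CTSB, a lysosomal protease, ranged over 117 to 156 CPM in 3 year fish and 74.9 to 110 CPM in 1 year fish at 3.75 nM (0.56 ± 0.09), and CTSC had 24.8 to 56.4 CPM in 3 year fish and 16.8 to 26.4 CPM in those 1 year fish (0.89 ± 0.16). Among pan-leukocyte and macrophage genes, ptprc was higher by 0.78, itgb2 by 0.79, cd68 by 0.81 and csf1rb by 0.59 on the log2 scale, and the galectin gene lgals9l1 by 1.68. The list had 8 calls without replicate 3 of the 3 year fish, 2 in the lower run, 4 in the higher run, 9 without the libraries with scores over 2 and 1 without those past 1.5. Among the called genes that did not hold were c1qb, marco and grna.1, with log2 fold changes against 37.5 nM of 0.78, 0.76 and 1.64, and none of these 3 passed the test between young groups. In bulk brain, more cells of a type and more RNA per cell cannot be told apart.

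The markers of T, B and natural killer cells were called higher for 18 of 37 tested genes and lower for 0, with a median log2 fold change of 0.64, and 16 held. The 18 were 48.6% of the list, where 5.54% of all genes were higher. Of the 37, 8 had a negative log2 fold change, down to -1.07, and 1 gene of the list was called lower against 37.5 nM. Outside the list, CXCR3, a chemokine receptor of activated T cells in mammals, had 2.76, 4.93, 11, 6.56, 5.03, 5.25 and 6.02 CPM in 3 year fish and 0.662 to 1.99 CPM in 1 year fish at 3.75 nM. All 7 fish lay above the young range, at a log2 fold change of 2.44 ± 0.26. ZAP70, a T cell receptor kinase, had 3.15 to 8.93 CPM in 3 year fish and 1.8 to 2.74 CPM in 1 year fish at 3.75 nM (1.41 ± 0.18), and il7r had 1.65 to 7.93 CPM in 3 year fish and 0.478 to 1.44 CPM in those 1 year fish (2.02 ± 0.28). The protease gene gzm3 had 0.677 to 5.34 CPM in 3 year fish and 0.0882 to 0.720 CPM in 1 year fish at 3.75 nM, with 1 old fish inside the young range. The coreceptor genes cd8a and cd4-1 were higher by 3.22 ± 0.58 and 1.8 ± 0.32, at medians of 1.8 and 2.16 CPM in 3 year fish and 0.131 and 0.483 CPM in 1 year fish at 3.75 nM. The T cell kinase gene lck (1.59), the T cell factor THEMIS (2.21) and the transcription factor tbx21 (1.93) also held. The immunoglobulin heavy chain gene ighm was higher by 2.49 ± 0.59, at 1.85 to 27.6 CPM in 3 year fish and 0.265 to 5.18 CPM in 1 year fish at 3.75 nM, and missed the threshold against 37.5 nM (1.92, adjusted p = 0.063). It was 1 of the 2 that did not hold, with cxcr3.2 the other. The lower run gave 0 calls in the list, the higher run 12, and omission of the libraries with scores over 2 and past 1.5 gave 13 and 3.

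Of 44 interferon response genes tested, 14 were higher, 0 were lower and 12 held, with a median log2 fold change of 0.61; the median was 0.32 in the lower run and 1.00 in the higher run. The 14 made up 31.8% of the list, where 5.54% of all genes were higher. The calls were 1 and 8 in the single runs, 9 without replicate 3 of the 3 year fish, 11 without the libraries with scores over 2 and 2 without those past 1.5. The factor irf9, which carries STAT proteins to interferon-stimulated genes, had 17.3, 22.8, 26.7, 23.5, 14.8, 18.9 and 22.5 CPM in 3 year fish and 10.4 to 14.6 CPM in 1 year fish at 3.75 nM. It rose in every 3 year fish above the young range, by 0.77 ± 0.11 on the log2 scale. SOCS1, an inhibitor of cytokine receptors, had 2.85 to 8.64 CPM in 3 year fish and 1.32 to 2.12 CPM in 1 year fish at 3.75 nM (1.4 ± 0.21). The ifi44 genes split the 3 year fish: ifi44a1 had 1.11 and 2.01 CPM in replicates 1 and 2, 3.70 CPM in replicate 5 and 9.82 to 14.3 CPM in the other 4, with 0.353 to 3.12 CPM in 1 year fish at 3.75 nM. For ifi44a6 the same replicates 1 and 2 had 0.242 and 0.481 CPM, within the young range of 0 to 0.651 CPM, and the other 5 had 1.89 to 13.7 CPM. Outside the list, the interferon-induced GTPase gene mxg stood at 9.82, 0.0803, 6.59, 8.84, 2.52, 14.4 and 18.4 CPM in 3 year fish and at 0.948 to 2.89 CPM in 1 year fish at 3.75 nM. Replicate 2 was below every young fish, and the call for mxg (2.18 ± 0.56, adjusted p = 0.023) was lost without replicate 1 (2.06, adjusted p = 0.053) and with limma voom (1.56, adjusted p = 0.21). The regulators irf1b, IRF5, IRF8 and irf10 held at 0.63, 0.57, 1.01 and 1.75, and gbp1 and gbp2, guanylate-binding proteins against intracellular microbes, at 1.3 and 1.4.

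Complement, NF-kB and cytokine genes were higher for 7 of 26 and lower for 1, RIPK2, and 5 held, with a median log2 fold change of 0.19. The share called was 30.8%, against 9.14% of all genes in either direction. Complement c4 had 36.1, 41.3, 53.7, 51.0, 38.58, 58.3 and 73.4 CPM in 3 year fish and 13.9 to 36.4 CPM in 1 year fish at 3.75 nM (1.03 ± 0.15), and 6 of 7 fish lay above the young range. The classical pathway protease gene c1s.1 had 4.02 to 7.55 CPM in 3 year fish and 1.33 to 3.41 CPM in 1 year fish at 3.75 nM, without overlap (1.17 ± 0.20). The adaptor gene traf3ip2l, related to a mammalian adaptor of interleukin 17 receptors, had 1.02, 10.3, 17.9, 19, 0.509, 0.949 and 1.04 CPM in 3 year fish and 0.243 to 1.23 CPM in 1 year fish at 3.75 nM. Its difference (3.59 ± 0.67, adjusted p = 0.0049) thus lay in 3 of 7 fish, with the other 4 inside the young range. Among 12 granulocyte genes, SERPINB1 (ENSDARG00000055416), a protease inhibitor, was higher, at 1.24 to 2.52 CPM in 3 year fish and 0.910 to 2.19 CPM in 1 year fish at 3.75 nM. It was the only call of that list, or 8.33%, where 5.54% of all genes were higher.

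**Figure D3:**
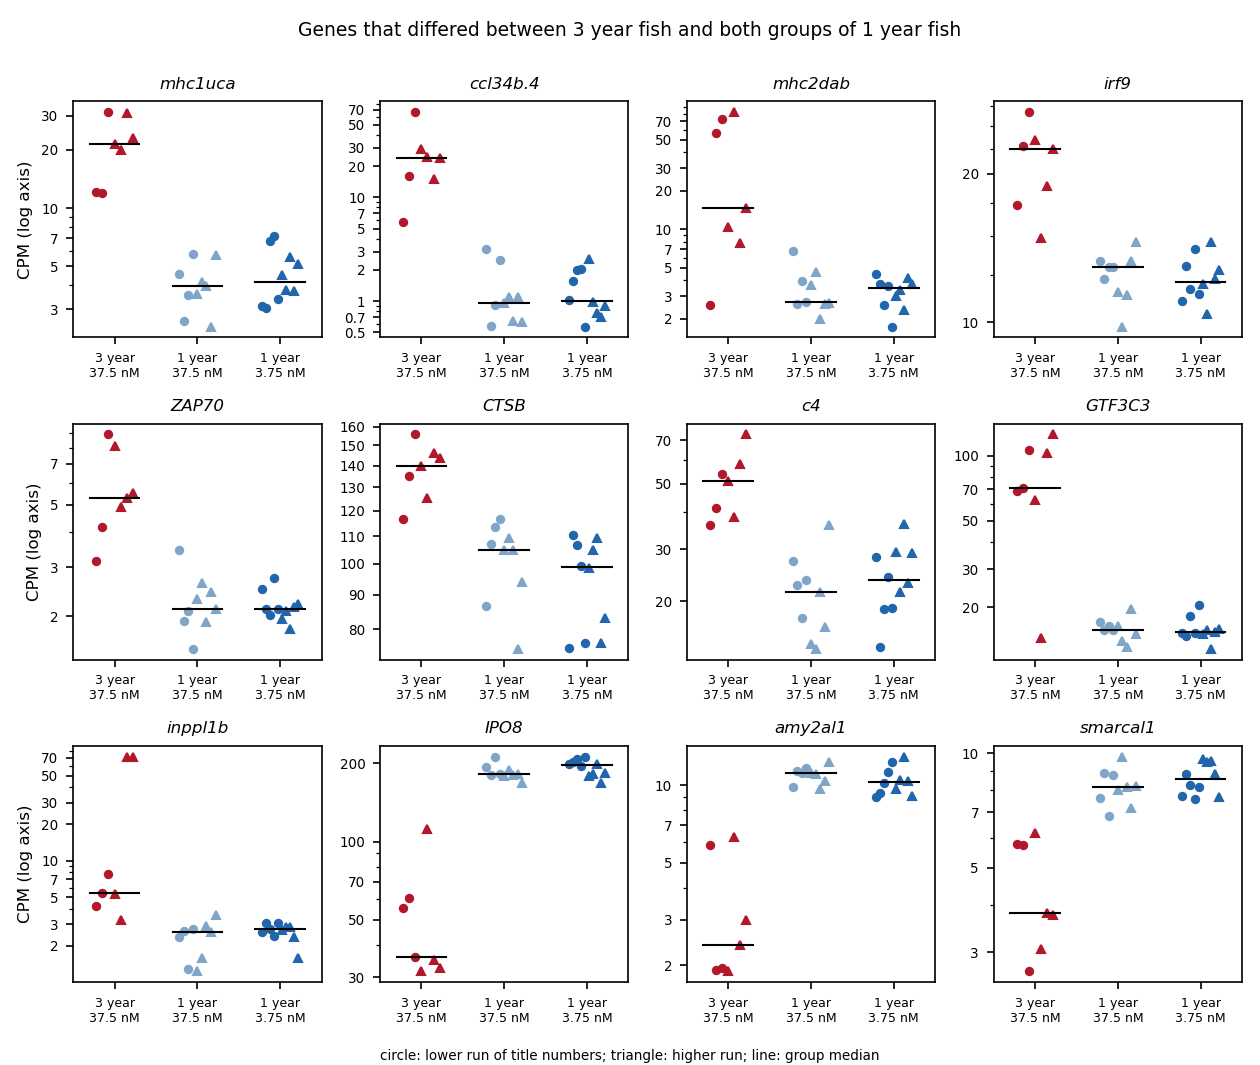
CPM (log axis) of 12 genes that held, in each library of 3 year fish at 37.5 nM, 1 year fish at 37.5 nM and 1 year fish at 3.75 nM; the line is the group median. For mhc1uca, ccl34b.4, irf9, ZAP70, CTSB, inppl1b, IPO8, amy2al1 and smarcal1 all 7 old fish lie outside the range of 1 year fish at 3.75 nM, while 1 old fish lies inside it for mhc2dab, c4 and GTF3C3.

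Of the 10 increases named for their size, inppl1b, GTF3C3, ptpdc1b and LECT2 (ENSDARG00000090889) are in none of the immune groups above. The inositol lipid phosphatase gene inppl1b had 4.26, 5.46, 7.76, 5.35, 3.22, 71.7 and 70.8 CPM in 3 year fish and 1.57 to 3.09 CPM in 1 year fish at 3.75 nM. Replicates 6 and 7 stood far above the others, and all 7 lay above the young range; the log2 difference of 2.79 ± 0.66 was 1.08 in the lower run and 3.96 in the higher run. GTF3C3, a subunit of the factor that recruits RNA polymerase III, had 68.9, 71.0, 106, 62.4, 14.4, 103 and 125 CPM in 3 year fish and 12.8 to 20.5 CPM in 1 year fish at 3.75 nM (2.33 ± 0.28). Replicate 5 lay within the young range and the other 6 above it. For ptpdc1b, a phosphatase gene, replicate 6 had 1.73 CPM and the other 6 had 4.35 to 10.5 CPM, with 0.771 to 2.52 CPM in 1 year fish at 3.75 nM (2.18 ± 0.29). LECT2, a leukocyte chemotaxin, had 6.39 to 26.9 CPM in 3 year fish and 2.12 to 8.462 CPM in 1 year fish at 3.75 nM (2.14 ± 0.30). In the young comparison these 4 genes differed by -0.16, 0.01, 0.11 and -0.22 on the log2 scale, with adjusted p of 0.73 or more.

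Among the 10 decreases named for their size, the largest were of IPO8 and amy2al1. IPO8, an importin that carries proteins into the nucleus, had 55.6, 60.4, 36.0, 31.6, 111, 35.0 and 32.5 CPM in 3 year fish and 168 to 211 CPM, median 197, in 1 year fish at 3.75 nM. All 7 lay below the young range, replicate 5 nearest to it, and the log2 fold change was -1.88 ± 0.23 (adjusted p = 0.00047). The amylase family gene amy2al1 had 5.85, 1.93, 1.96, 1.9, 6.28, 2.4 and 3.00 CPM in 3 year fish and 9.01 to 12.9 CPM in 1 year fish at 3.75 nM (-1.65 ± 0.25). Replicates 1 and 5 were the old fish nearest to the young ones. For smarcal1, a helicase that reanneals DNA at stalled forks, 3 year fish had 2.67 to 6.18 CPM and 1 year fish at 3.75 nM had 7.61 to 9.65 CPM, without overlap (-0.95 ± 0.16). The prolactin family gene prl2 had 12.8 CPM in replicate 1 and 2.88 to 5.29 CPM in the other 3 year fish, against 6.72 to 35.3 CPM in 1 year fish at 3.75 nM (-1.41 ± 0.36). Lower by 0.95 to 1.33 on the log2 scale were ak7a, an adenylate kinase gene of motile cilia, ugt2a7, a glucuronosyltransferase gene, the myosin gene myo15b, GPD1 (ENSDARG00000043701), which makes glycerol phosphate, the GTPase regulator ARHGAP19 and the RNA lnc.85. Their levels were low, at medians of 1.4 to 6.60 CPM in 3 year fish and 2.72 to 17 CPM in 1 year fish at 3.75 nM.

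**Figure D4:**
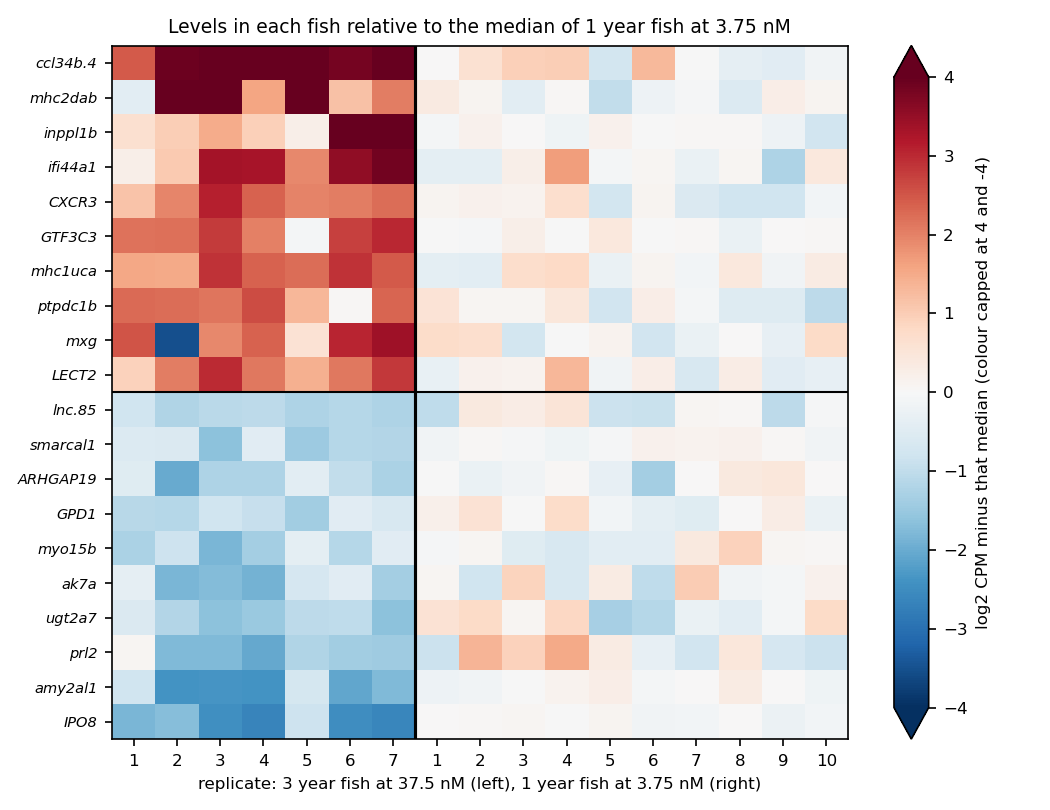
Level of the 10 increases and 10 decreases that held and were named for their size, among genes with a mean log2 CPM of at least 1, in each of 7 libraries of 3 year fish (left) and 10 of 1 year fish at 3.75 nM (right), as log2 CPM minus the median of the 1 year fish at 3.75 nM; colour is capped at 4 and -4. GTF3C3 is near 0 in replicate 5 of the 3 year fish, mxg is negative in replicate 2, and inppl1b is at the cap in replicates 6 and 7.

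Circadian clock genes were called in both directions: of 45 tested, 10 were higher and 15 lower in 3 year fish than in 1 year fish at 3.75 nM, or 55.6% of the list. Of these 25, 1 higher and 4 lower genes held against 1 year fish at 37.5 nM. Over all genes, 9.14% were called in either direction against 3.75 nM. In the young comparison 9 of the 45 passed the test, 7 higher and 2 lower at 37.5 nM. Between those young groups concentration and count table cannot be told apart. No hour of sampling was available here, so its part in the clock differences, those that held included, was not tested. The clock driver BMAL1 (ENSDARG00000006791) had 81.6, 77.3, 73.1, 74.9, 80.4, 76.0 and 82.0 CPM in 3 year fish, 71.8 to 88.1 CPM in 1 year fish at 37.5 nM and 48.6 to 75.0 CPM in 1 year fish at 3.75 nM. On the log2 scale both groups at 37.5 nM were higher than that at 3.75 nM, by 0.38 ± 0.07 for 3 year fish and 0.43 for 1 year fish. Their ranges overlapped with it, and 5 of 7 old fish lay above the range at 3.75 nM. The receptor rorcb, which activates BMAL genes, had 106, 91.1, 92.8, 118, 133, 109 and 144 CPM in 3 year fish, 78.9 to 113 CPM in 1 year fish at 37.5 nM and 25.2 to 80.3 CPM in 1 year fish at 3.75 nM (1.2 ± 0.18). NR1D2, which represses them, ran the other way, at 75.5 to 109 CPM in 3 year fish, 73.6 to 131 CPM in 1 year fish at 37.5 nM and 122 to 346 CPM in 1 year fish at 3.75 nM (-0.97 ± 0.20). All 7 old fish lay above the range of 1 year fish at 3.75 nM for rorcb and below it for NR1D2, and against 37.5 nM neither passed (0.20, adjusted p = 0.11, and -0.05, adjusted p = 0.82).

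Within the 1 year fish at 3.75 nM, levels of rorcb and NR1D2 lay apart by run, which was not tested within that group. In the lower run rorcb had 28.0 to 41.3 CPM and NR1D2 170 to 219 CPM; in the higher run 4 of 5 fish had 72.0 to 80.3 CPM of rorcb and 122 to 132 CPM of NR1D2. The fifth, replicate 6, went with the lower run at 25.2 CPM of rorcb and 346 CPM of NR1D2, and its eye and pineal score was 1.55. Of the 25 called clock genes, 23 had the larger difference from 3 year fish in the lower run and 2 in the higher run, with the same sign in both runs for all 25. Log2 values were 1.49 for rorcb, 0.53 for BMAL1 and -1.23 for NR1D2 in the lower run, and 0.94, 0.24 and -0.76 in the higher run. The 2 that went the other way were PER3, at -0.70 in the lower run and -1.39 in the higher, and NFIL3, at 0.21 and 0.63. The list had 7 higher and 9 lower calls within the lower run and 0 in either direction within the higher run. Without replicate 6 the list had 10 higher and 14 lower calls. Without the libraries with scores over 2 it had 5 and 9, and without those past 1.5 it had 2 and 0. At 3.75 nM the former were replicates 1, 4 and 5, all of the lower run. The latter also took in replicates 3 and 6, which left replicate 2 alone in the lower run. Score and run thus cannot be told apart in these omissions. The group by run interaction was called for no gene, so the difference between runs did not pass a test.

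**Figure D5:**
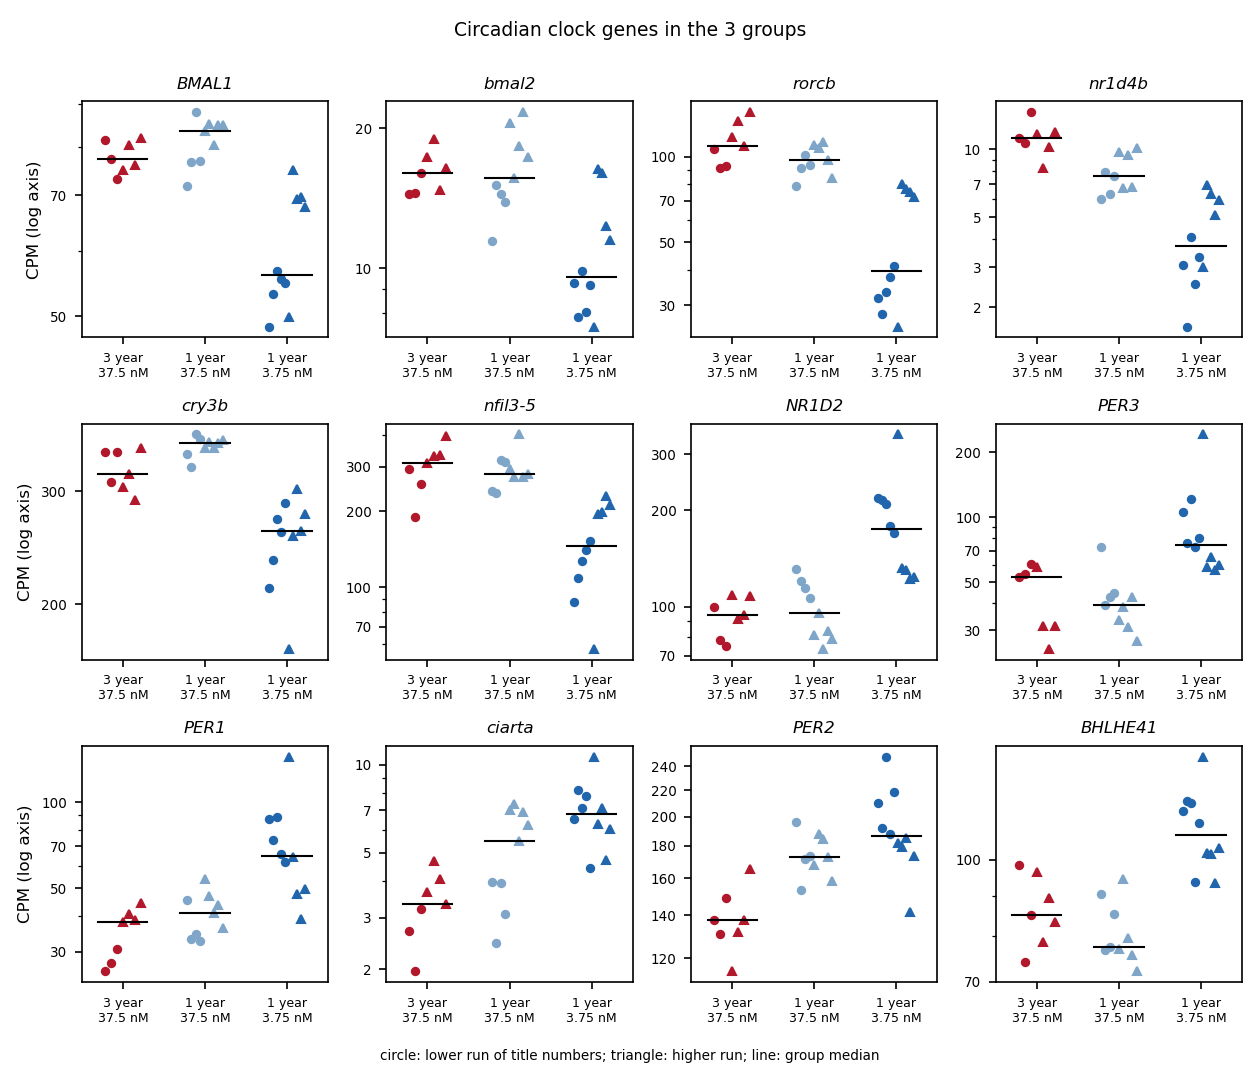
CPM (log axis) of 12 circadian clock genes in each library of the 3 groups; circles are the lower and triangles the higher run of title numbers, and the line is the group median. For BMAL1, rorcb and NR1D2 the 3 year fish overlap with 1 year fish at 37.5 nM, and in 1 year fish at 3.75 nM the triangles, with 1 exception, lie apart from the circles.

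The clock genes that held were nr1d4b, higher, and PER2, ciarta and both CRY1 copies (ENSDARG00000011583 and ENSDARG00000045768), lower. The nuclear receptor gene nr1d4b had 11.2, 10.7, 14.6, 11.7, 8.28, 10.2 and 11.9 CPM in 3 year fish, 6.03 to 10.1 CPM in 1 year fish at 37.5 nM and 1.64 to 6.98 CPM in 1 year fish at 3.75 nM. The 3 groups were thus stepped, with log2 differences of 1.47 ± 0.22 against 3.75 nM, 0.51 against 37.5 nM and 0.92 between the young groups, each with an adjusted p under 0.05. PER2, a light-induced period gene in zebrafish, had 114 to 166 CPM, median 138, in 3 year fish, a median of 173 CPM in 1 year fish at 37.5 nM and 142 to 248 CPM, median 186, in 1 year fish at 3.75 nM (-0.45 ± 0.08; against 37.5 nM -0.34). The BMAL repressor gene ciarta had medians of 3.34, 5.50 and 6.80 CPM in the 3 groups in that order (-1.05 ± 0.18). The CRY1 copies were lower by 0.60 ± 0.14 and 0.20 ± 0.04. In the young comparison PER2 differed by -0.13, ciarta by -0.51 and the CRY1 copies by -0.21 and -0.01, with adjusted p of 0.31 or more. PER3 and PER1 (ENSDARG00000012499) had log2 fold changes of -1.07 and -1.05 against 3.75 nM, and 0.12 and -0.25 against 37.5 nM, where neither passed; between the young groups the values were -1.2 (adjusted p = 0.10) and -0.83 (adjusted p = 0.14).

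Genes outside the clock list were also called both against 3.75 nM and between the young groups. MXD3, a MYC antagonist, had 14.1, 11.1, 11.6, 12.7, 10.1, 11.9 and 13.7 CPM in 3 year fish, 10.1 to 12.3 CPM in 1 year fish at 37.5 nM and 5.30 to 9.95 CPM in 1 year fish at 3.75 nM. All 7 old fish lay above the range at 3.75 nM (0.73 ± 0.10), and against 37.5 nM the difference was 0.09 (adjusted p = 0.44). YPEL3 (0.28 ± 0.05), fbxl3l (1.25 ± 0.25) and the gene ENSDARG00000043237, for which no symbol was found (1.21 ± 0.18), were higher against 3.75 nM and at -0.21 to 0.12 against 37.5 nM. The gene si:ch211-132b12.7 was lower in all 7 old fish, at 8.32 to 10.3 CPM in 3 year fish, 8.22 to 15.8 CPM in 1 year fish at 37.5 nM and 13.2 to 52.8 CPM in 1 year fish at 3.75 nM (-1.54 ± 0.24).

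Calls of heat shock genes, which code for protein chaperones, differed in number against the young groups. Against 3.75 nM 1 of 32 was higher and 3 were lower, HSPA4 (ENSDARG00000004754), HSPD1 and DNAJB5, where 5.54% of all genes were higher and 3.6% lower. Against 37.5 nM 9 were higher and 0 lower, where 5.83% of all genes were higher and 4.1% lower. In the young comparison 3 were lower at 37.5 nM, HSPA4, dnaja1 and dnajb1b. The co-chaperone gene dnajb1b had a median of 3.76 CPM in 3 year fish, 2.58 CPM in 1 year fish at 37.5 nM and 4.63 CPM in 1 year fish at 3.75 nM; its log2 fold change was 0.66 against 37.5 nM (adjusted p = 0.009) and 0.01 against 3.75 nM (adjusted p = 0.97). The one that held was hsp70l, a stress-induced member of the HSP70 family, with 7.5, 13, 10.1, 3.11, 0.848, 4.47 and 3.08 CPM in 3 year fish and 0.637 to 2.65 CPM in 1 year fish at 3.75 nM. Replicate 5 lay within the young range, and the log2 fold change was 1.76 ± 0.28 against 3.75 nM and 2.17 against 37.5 nM. The nociceptin precursor gene pnocb was likewise a gene of the young comparison. Its medians were 20.9, 42.9 and 28.6 CPM in 3 year fish, 1 year fish at 37.5 nM and 1 year fish at 3.75 nM. In 3 year fish it was lower against 37.5 nM, at a log2 fold change of -0.905 (adjusted p = 0.00093, edgeR). Its log2 fold change of -0.37 against 3.75 nM missed the threshold (adjusted p = 0.076).

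No complex I gene passed the test. Of 40 nuclear genes of complex I, which rotenone blocks, 0 were called, with log2 fold changes of -0.10 to 0.16 and a median of 0.02; the median against 37.5 nM was -0.07. Of 50 nuclear genes of complexes II to V, 0 were called against 3.75 nM (median -0.03) and 4 were lower against 37.5 nM (median -0.13), and 0 passed between the young groups. The 13 mitochondrially encoded subunit genes had 0 calls and a median of 0.04, with 0.20 in the lower run and -0.09 in the higher run, and -0.15 against 37.5 nM. Between the young groups, which share fish with both comparisons, 13 of 13 of these genes and 39 of 40 of complex I were positive, at medians of 0.17 and 0.09, and 0 were called. Of the nuclear genes of complexes II to V, 48 of 50 were likewise positive there, at a median of 0.094. Among 18 orthologs of Parkinson disease genes and synucleins, 3 were higher and held: ATP13A2, a lysosomal polyamine transporter, with 12.8 to 20.6 CPM in 3 year fish and 9.89 to 12.9 CPM in 1 year fish at 3.75 nM (0.52 ± 0.09), TMEM175, a lysosomal ion channel (0.36 ± 0.08), and fbxo7, a ubiquitin ligase subunit (0.34 ± 0.07). The lysosomal receptor gene scarb2a was lower (-0.54 ± 0.14) and did not hold. The share of this list called was 22.2%, against 9.14% of all genes in either direction. Of 35 dopamine, noradrenaline and serotonin genes, 3 receptor genes were lower, or 8.57%. Over all genes 3.6% were lower and 9.14% were called in either direction. The 3 were htr1aa (-0.38 ± 0.09) and drd4b (-0.56 ± 0.16), which held, and DRD2 (ENSDARG00000011091, -0.28 ± 0.08), which did not. The calls of drd4b and DRD2 were each lost in 9 of 17 omissions of a single library.

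In the DNA damage list 5 of 38 genes were higher and 0 lower, with a median log2 fold change of 0.05, and 4 held. The share called was 13.2%, where 5.54% of all genes were higher. CCNG1, a cyclin induced by DNA damage, had 222 CPM in replicate 5 and 278 to 323 CPM in the other 3 year fish, against 189 to 273 CPM in 1 year fish at 3.75 nM (0.45 ± 0.08). The kinase gene ATM (0.45 ± 0.09) and the death receptor gene fas (1.11 ± 0.33) held too, while cdkn2a/b (0.37 ± 0.10) missed the threshold against 37.5 nM.

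Genes of neurons and vessels were lower where called. Of 57 neuron and synapse genes, 0 were higher and 7 lower, with a median log2 fold change of -0.13, and 4 held: GRIN1 (ENSDARG00000027828), a glutamate receptor subunit (-0.23 ± 0.06), GRIA3 (ENSDARG00000037498; -0.17), the neurotrophin gene BDNF (-0.35) and map2, of dendritic microtubules (-0.16). Of 45 endothelial and blood-brain barrier genes, 0 were higher and 5 lower, with a median of -0.18, and 2 held. CLDN5 (ENSDARG00000043716), the tight junction claudin, had 25.1 CPM in replicate 5 and 11.3 to 13.7 CPM in the other 6 old fish, against 18.3 to 41.6 CPM in 1 year fish at 3.75 nM (-0.67 ± 0.16). The monocarboxylate transporter gene SLC16A1 (ENSDARG00000068572) was the other (-0.40 ± 0.11). kdrl, whose promoter drives the transgene, ranged over 84.3 to 164 CPM in 3 year fish and 87.8 to 214 CPM in 1 year fish at 3.75 nM. Among 35 genes of progenitors and immature neurons 2 were lower and held, tmsb (-0.43 ± 0.10) and EBF2 (-0.55 ± 0.16), with a list median of -0.24; the EBF2 call was lost in 12 of 17 omissions of a single library. Of 34 cell cycle genes 2 were lower, RRM1 (-0.23 ± 0.06), which held and was lost in 6 of 17 such omissions, and CCNB1 (-0.99 ± 0.23). The progenitor and cell cycle lists had 5.71% and 5.88% of genes called, all lower, near the 3.6% lower over all genes. For the neuron, endothelial and pituitary lists the shares were 12.3%, 11.1% and 17.6%, all lower. Of 17 pituitary genes 3 were lower: besides prl2, scg2b (-0.34 ± 0.08), which held, and PCSK1 (-0.37 ± 0.08), which did not.

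Oligodendrocyte genes were higher for 3 of 24 and lower for 1, with a median of -0.06. The share called was 16.7%, against 9.14% of all genes in either direction. OLIG2, a lineage factor, had 42.6 to 98.8 CPM in 3 year fish and 30.5 to 70.9 CPM in 1 year fish at 3.75 nM (0.57 ± 0.14), and the receptor gene erbb3b had 10.3 to 31.3 CPM in 3 year fish and 6.43 to 16.7 CPM in those 1 year fish (0.82 ± 0.20). The gene myrfl had 10.4, 0.562, 22.8, 13, 30.9, 0.508 and 0.0288 CPM in 3 year fish and 0 to 1.36 CPM in 1 year fish at 3.75 nM (4.31 ± 0.97). It was high in 4 of the 7 fish and inside the young range in 3, and with limma voom its adjusted p was 0.24. These 3 held, and the lower one, GPR17 (-0.58 ± 0.16), did not.

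Cholesterol and fatty acid synthesis genes were lower where called, and none held. Of 33 tested, 31 had a negative log2 fold change against 3.75 nM, 4 passed as lower and 0 as higher. The share called was 12.1%, all lower, where 3.6% of all genes were lower. The list median was -0.27, with -0.55 in the lower run and -0.11 in the higher run. The called genes were srebf2, the regulator of the cholesterol genes (-0.48 ± 0.12), insig1, which retains that regulator in the endoplasmic reticulum (-0.69 ± 0.20), ACACA (-0.29 ± 0.08) and FASN (-0.32 ± 0.10), the enzymes of fatty acid synthesis. Against 37.5 nM they had -0.37, -0.52, -0.10 and -0.11, none past the threshold. The call of insig1 was lost in 12 and that of ACACA in 5 of 17 omissions of a single library. Between the young groups the list median was -0.21, with 30 of 33 negative and 0 called; the 1 year fish at 3.75 nM are shared with the first comparison. For srebf2, 3 year fish had 70.34 to 145 CPM and 1 year fish at 3.75 nM had 115 to 201 CPM, and replicate 5 was the highest of the old fish.

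The remaining lists had few calls each. Of all genes tested, 9.14% were called in either direction, and of these lists only BMP signalling and importins passed that share, at 16.1%. Glycolysis and glucose transport had 1 higher, slc2a3b (0.44 ± 0.10), and 2 lower of 40, and all 3 held. The lower genes were SLC16A1 (ENSDARG00000068572, -0.40 ± 0.11) and SLC16A3 (ENSDARG00000045051, -0.54 ± 0.16). The SLC16A3 call was lost in 13 of 17 omissions of a single library. BMP signalling and importins had 2 higher and 3 lower of 31, of which IPO8 and KPNA3 (-0.20) held; IPO7 was lower by 0.11 ± 0.03, with all 7 old fish below the range of 1 year fish at 3.75 nM, and did not hold. Integrated and mitochondrial stress had PSAT1 higher (0.49 ± 0.10), which held, and mthfd2 lower (-0.49 ± 0.07), which did not, of 27. Oxidative stress had CAT higher (0.22 ± 0.05) and TXNRD3 lower (-0.15 ± 0.04) of 28, and neither held. Radial glia had 2 higher of 24, ID1 and ID3 (0.23 each), or 8.33%, where 5.54% of all genes were higher. ID3 is also in the list of BMP signalling and importins. Extracellular matrix had 1 higher and 1 lower of 49, hypothalamic neuropeptides 2 lower of 42 and immediate early genes 1 lower of 30. In these lists, radial glia included, 0 held. Lists of red blood cells (10 tested), eye and pineal (22) and skin (24) had 0 calls. The eye and pineal median was -1.11, and -0.25 without the libraries with scores over 2. Skeletal muscle had 1 higher, MYBPC1 (1.11 ± 0.17), and 1 lower, ldb3b (-1.88 ± 0.53), of 31, with a median of -1.71 that was -0.37 without those libraries, and neither gene held.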

How the data were processed

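RNA of 26 zebrafish brains was sequenced. Per the labels' protocols the TruSeq RNA kit v2 was used, which does not mark strand, so overlapping and antisense genes cannot be told apart; copies of the mhc1, mhc2, ifi44, gzm, mx, serpinb1 and lect2 families may share reads. The tools STAR 2.4.1d, featureCounts 1.4.6-p4 and CASAVA 1.8.2 and the build GRCz10 are listed, with no role, per the submitters' processing notes. The authors deposited raw counts per Ensembl gene in 2 tables, one per concentration, which were joined on 32105 gene IDs; 26269 had a symbol. No gene was at 0 throughout one concentration with 10 or more counts in every library of the other, and no pair of libraries was identical.

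Genes passing filterByExpr were tested with edgeR 4.0.16 (TMM, robust quasi-likelihood, title run and group; R 4.3.3) and Benjamini-Hochberg adjustment over all genes tested at 0.05; fitted values are log2 fold changes, 3 year over 1 year, or 37.5 nM over 3.75 nM between young groups, and CPM uses TMM library sizes. Replicates are numbered in accession order. Named genes were, first, the 10 largest increases and 10 largest decreases that held, at a mean log2 CPM of at least 1. Genes with no symbol or with a clone or contig name were left out of that ranking. The ranking used the smaller of the 2 absolute log2 fold changes. Also named were up to 10 genes called between young groups as well, and up to 3 per list. Other list members named were chosen after their values were seen. The members and the 34 lists (1152 of 1250 symbols matched) were chosen with earlier results of these data known. Alternatives were DESeq2 1.42.0, limma 3.58.1 voom, RLE scaling, 2 other count filters, no run term, one fit of all libraries, single runs and omission of libraries. No sequences are shown. Some named genes are not reported here.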

Additional observations from a re-analysis of the deposited data

Results flagged for a closer look

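Among 93 named genes, the log2 CPM of 186 groups of 7 or 10 libraries was searched for a library far from the rest of its group (gap to the nearest library over the range above 0.568 for 7 and 0.466 for 10). The search marked 17 groups, or 9.14%. These limits mark about 1 in 20 groups of independent, normally distributed values. The groups here share libraries and hold genes chosen for their differences, so the 2 shares together are no test. Among 3 year fish, replicate 5 was low for GTF3C3 (14.4 CPM, next 62.4) and CCNG1 (222 CPM, next 278) and high for CLDN5 ENSDARG00000043716 (25.1 CPM, next 13.7) and insig1 (106 CPM, next 59.6). Replicate 2 was low for mxg (0.0803 CPM, next 2.52) and drd4b (0.923 CPM), replicate 1 was high for prl2 (12.8 CPM) and replicate 7 for rorca (70.29 CPM). Among 1 year fish at 3.75 nM, replicate 8 was high for CLDN5 ENSDARG00000043716 (41.6 CPM), SLC16A1 ENSDARG00000068572 (20.2 CPM) and CCNG1 (273 CPM) and low for CCNB1 (1.39 CPM). Replicate 6 was low for ARHGAP19 (2.57 CPM) and SLC16A3 ENSDARG00000045051 (16.4 CPM). Replicate 4, which had the highest muscle score of its group, was high for ldb3b (16.0 CPM) and LECT2 ENSDARG00000090889 (8.462 CPM), and replicate 10 was low for inppl1b (1.57 CPM).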

How the results depend on the processing

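Of the 93 named genes none changed sign in any alternative. RLE scaling kept all 93 calls, and DESeq2 did too; limma voom lost 5, omission of the run term 15, the lower run alone 66, the higher run alone 72, omission of libraries with scores over 2 lost 30 of 92, and omission of those over 1.5 lost 83. Genes lower than in 1 year fish at 3.75 nM numbered 448 without the run term and 1281 with DESeq2, where 650 held as lower. The lower run alone gave 107 higher and 149 lower, the higher run 229 and 27. Without libraries with scores over 1.5 the counts were 46 higher and 28 lower, with 38 and 18 that held; with the limit at 2 they were 572 and 262, with 384 and 136 that held. Leaving out 1 library at a time gave 625 to 1400 higher, 363 to 1076 lower, 387 to 819 held higher and 191 to 517 held lower. The lowest of each came without replicate 3 of the 3 year fish and the highest without its replicate 5; without replicate 2, 4 or 7 of that group, 222, 202 and 201 held as lower, and without 4 or 7, 475 and 451 were lower. The cause of these shifts was not tested, nor was the part of the smaller numbers of libraries. Single-library omission also ended the calls of ak7a in 7, SLC16A1 ENSDARG00000068572 in 4, GRIN1 ENSDARG00000027828 in 3, OLIG2 in 2, and ARHGAP19, erbb3b, htr1aa and prl2 in 1 of 17 omissions. No paired analysis was possible because the groups share no label numbers. Genes under 1 CPM rest on few counts.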
